A study of Mus musculus with 47 samples.

Results

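The H3K27ac peaks described here were called in the livers of E1/E2-KO mice (below KO) of both sexes, but not in control liver. H3K27ac, acetylation of lysine 27 of histone H3, marks active promoters and enhancers. A new peak was an autosomal peak of the KO male list that overlapped a peak of the KO female list by at least 1 bp and no peak of the control male or control female list. The members were thus selected on the measured H3K27ac calls themselves, and their presence in KO liver is the rule and not a result. Of 55055 autosomal H3K27ac peaks in KO male liver, 4480 (8.14%, exact 95% interval 7.91 to 8.37%) met it, and another 10751 were new in males only. The count was 1496 when each list was reduced to its 28862 widest peaks, and 1154 when only KO male peaks of 445 bp or more could be members.

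Livers were collected from 7 week old mice of each sex. Control mice carried floxed Ezh2 (Ezh2 f/f) without Cre. E1/E2-KO mice were Ezh1-/- in all cells and carried Ezh2 f/f with Alb-Cre, which is active in hepatocytes, so that the other cells of the liver lacked Ezh1 but could keep Ezh2. By the labels every list rests on 4 livers, save the KO female H3K4me1 list with 3, whereas the study's methods give the same number for every group and mark. Each of the 12 deposited lists (3 marks in 4 groups) was called from the pooled reads of its livers. There is accordingly 1 list per group and no replicate spread, no difference between lists or between sets of peaks was tested, and the exact binomial (Clopper-Pearson) 95% intervals given cover counting error only, with neighbouring peaks taken as independent although they are not.

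The number of reads behind each list is unknown. Among the H3K27ac lists that of control males was shortest, with 28862 autosomal peaks, against 48858 in control female, 55055 in KO male and 50426 in KO female liver. Absence from the control male list was therefore the weaker part of the rule. The mirror rule, control male peaks matched in control female liver and found in neither KO list, held for 577 of 28862 peaks (2.00%, 1.84 to 2.17%). Its base is the shortest list, so the 577 and the 4480 peaks are not a like-for-like count. The 26 hepatocyte marker genes examined had 90, 155, 159 and 149 H3K27ac peaks within 10 kb in control male, control female, KO male and KO female liver.

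Ezh1 and Ezh2 are the alternative catalytic subunits of Polycomb repressive complex 2, which trimethylates the same lysine 27 of histone H3. A given H3 tail cannot be acetylated and trimethylated at that residue at the same time, and H3K27me3 covers the promoters of silent developmental regulators as well as many distal sites. H3K4me1, monomethylation of lysine 4, marks enhancers and promoter flanks whether or not they are active. An H3K4me1 peak or an H3K27me3 region at a new H3K27ac peak thus shows what chromatin the control livers held there, and both marks were called independently of the rule.

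Central sequences of some members are given first, because the CpG content they show differed between the new peaks at promoters and those farther away. For 6 of the genes with the most new peaks the 200 central bases of the member closest to a transcript start are printed from the reference strand of mm9 (NCBIM37), and the whole peak where it is narrower. The Tcfap2a, Cdkn2a and Pecam1 peaks were added after their values had been seen. Capitals mark CG dinucleotides.
Prdm16: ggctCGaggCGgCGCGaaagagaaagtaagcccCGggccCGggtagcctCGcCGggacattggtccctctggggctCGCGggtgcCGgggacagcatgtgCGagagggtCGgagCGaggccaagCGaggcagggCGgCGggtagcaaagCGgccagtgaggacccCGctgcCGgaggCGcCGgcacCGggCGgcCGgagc
Ntrk2: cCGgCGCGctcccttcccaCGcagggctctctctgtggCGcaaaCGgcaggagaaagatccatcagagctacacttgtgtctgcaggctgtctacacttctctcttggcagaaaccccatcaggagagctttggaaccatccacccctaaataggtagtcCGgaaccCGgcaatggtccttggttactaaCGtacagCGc
Tcfap2a: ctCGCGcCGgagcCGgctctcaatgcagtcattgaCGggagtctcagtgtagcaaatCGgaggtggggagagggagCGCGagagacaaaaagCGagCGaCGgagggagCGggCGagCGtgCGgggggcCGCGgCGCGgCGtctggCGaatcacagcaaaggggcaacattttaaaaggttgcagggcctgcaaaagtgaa
Cdkn2a: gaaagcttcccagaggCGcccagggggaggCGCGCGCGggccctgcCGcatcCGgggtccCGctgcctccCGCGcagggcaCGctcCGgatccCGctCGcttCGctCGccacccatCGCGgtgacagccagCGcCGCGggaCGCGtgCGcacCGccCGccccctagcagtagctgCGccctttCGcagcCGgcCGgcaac
Pecam1: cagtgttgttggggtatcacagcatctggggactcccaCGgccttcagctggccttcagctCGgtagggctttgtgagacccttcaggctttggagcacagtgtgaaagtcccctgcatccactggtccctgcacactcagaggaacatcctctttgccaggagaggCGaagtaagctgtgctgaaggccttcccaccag
Sgms1: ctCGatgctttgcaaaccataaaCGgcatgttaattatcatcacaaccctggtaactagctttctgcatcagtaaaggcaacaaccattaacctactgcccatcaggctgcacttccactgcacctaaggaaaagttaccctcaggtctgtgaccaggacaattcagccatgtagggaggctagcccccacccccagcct
Pde4d: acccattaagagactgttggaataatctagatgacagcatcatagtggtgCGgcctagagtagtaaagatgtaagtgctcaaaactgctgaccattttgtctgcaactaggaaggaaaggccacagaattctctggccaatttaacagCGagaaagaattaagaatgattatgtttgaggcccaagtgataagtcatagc
Ttc7: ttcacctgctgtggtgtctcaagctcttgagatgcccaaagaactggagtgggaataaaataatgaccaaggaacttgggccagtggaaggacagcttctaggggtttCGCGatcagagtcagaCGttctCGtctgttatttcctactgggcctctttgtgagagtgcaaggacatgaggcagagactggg
Prkce: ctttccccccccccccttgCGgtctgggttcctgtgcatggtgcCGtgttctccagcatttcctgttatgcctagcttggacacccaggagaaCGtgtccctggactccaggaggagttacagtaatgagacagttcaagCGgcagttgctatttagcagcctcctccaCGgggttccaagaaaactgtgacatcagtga

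The Prdm16 window (chr4:154009910-154010109), centred 859 bases downstream of a start, held 25 CpGs at 74.5% GC. The Cdkn2a window (chr4:88940619-88940818), 162 bases upstream of a start, held 30 at 77.0% GC. The Tcfap2a window (chr13:40826100-40826299), 413 bases upstream, held 21. All 3 peaks lay inside H3K27me3 regions of all 4 lists. The Ntrk2 window (chr13:58908396-58908595), 539 bases downstream of the Ntrk2 start and likewise inside H3K27me3 regions in all 4 lists, held 10 CpGs. The intronic windows of Pecam1 (chr11:106597926-106598125), Sgms1 (chr19:32421966-32422165), Pde4d (chr13:110064934-110065133), Ttc7 (chr17:87690021-87690211) and Prkce (chr17:86700541-86700740) held 3, 2, 2, 4 and 5. Their GC content was 57.5%, 49.5%, 41.0%, 50.3% and 55%.

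A central window of 200 bases was called CpG-rich when its GC content was at least 55% and its observed to expected CpG ratio at least 0.65. Of 482 new peaks at promoters, 37.6% (33.2 to 42.0%) were CpG-rich, against 50.1% (49.2 to 51.1%) of 10843 promoter peaks present in all 4 H3K27ac lists. Of 3998 distal new peaks, 2.3% (1.86 to 2.81%) were, against 4.31% (3.95 to 4.70%) of 11704 distal peaks present in all 4 lists and 2.34% (2.19 to 2.49%) of all 40610 distal KO male peaks. The share in distal new peaks was thus that of distal peaks at large. Among the distal new peaks, the share was 6.64% (5.30 to 8.20%) where H3K27me3 was called in control and KO liver, and 0.377% (0.152 to 0.774%) where no list had a region.

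The same windows were searched on both strands for the letters of 10 motifs of factors known in liver or in developing tissue. The shares in distal new peaks are given beside those in all 40610 distal peaks of the KO male list, which include them. TGANTCA (AP-1) was found in 6.03% and 6.12%, TTCNNNGAA (STAT5) in 5.55% and 6.03%, TTGCNNAA (C/EBP) in 8.0% and 7.98% and TGTTTAC (FOXA) in 2.83% and 3.10%. AGATAA, read by GATA factors, was found in 8.28% (7.44 to 9.18%) and 9.50% (9.21 to 9.79%), the only pair of the 10 whose intervals did not meet. CCGGAA (ETS) was found in 2.63% and 3.09%, ATCAATA (HNF6) in 1.20% and 1.40% and CAGCTG (E-box) in 13.5% and 13.4%. GGAATG (TEAD) was found in 11.9% and 11.5%, and TTGGCA (NFI) in 12.6% and 11.6%. The motifs were allowed to overlap each other, and a match says only that these letters are present.

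New peaks were mostly distal, and narrower than peaks present in all 4 lists. Their median width was 326 bp (5th to 95th percentile 207 to 717 bp), against 763 bp for the 22547 KO male peaks present in all 4 lists and 267 bp for those new in males only. Width is tied to the rule, since a wide peak touches a control peak more easily and is then no member. The widest new peak spanned 1672 bp. Only 482 new peaks (10.8%, 9.87 to 11.7%) had their centre within 1 kb of a protein-coding transcript start, here called a promoter peak, against 48.1% (47.4 to 48.7%) of peaks present in all 4 lists. A further 190 (4.24%) lay in exons, 2051 (45.8%) in introns and 1757 (39.2%) between genes. The median distance to a start was 20657 bp, against 1542 bp for peaks present in all 4 lists. Within 50 kb of a start were 73.1% of the new peaks, and within 100 kb 86.6%. Promoter peaks made up 26.2% of all KO male peaks and 6.32% of peaks new in males only. Among peaks under 500 bp they made up 10.7% of new peaks and 28.2% of peaks present in all 4 lists.

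**Figure D1:**
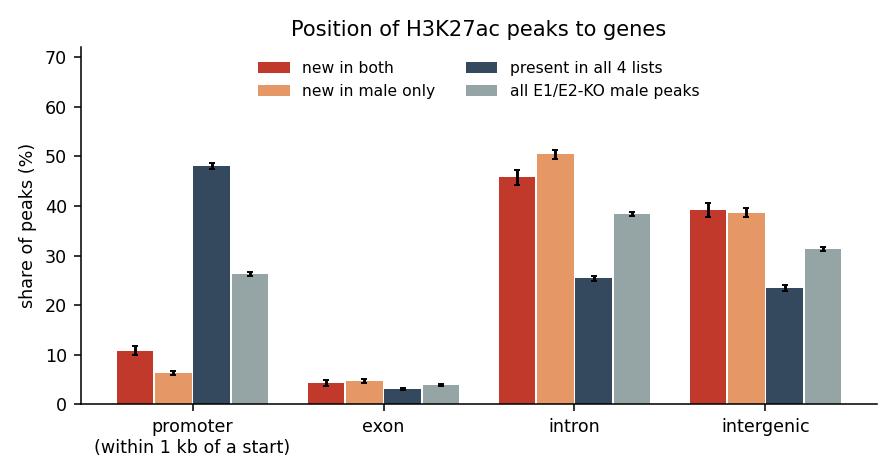
Share of H3K27ac peaks (y axis, percent) in 4 positions relative to genes, for peaks new in both KO lists, new in males only, present in all 4 lists, and all KO male peaks. Bars start at 0 and lines are exact 95% intervals for counting error; new peaks reach 10.8% at promoters and 45.8% in introns, and peaks present in all 4 lists 48.1% and 25.4%.

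The members were spread over all 19 autosomes, from 1.5 per Mb on chromosome 1 to 2.48 per Mb on chromosome 19. They made up between 7.30% (chromosome 10) and 9.70% (chromosome 6) of the KO male peaks of a chromosome. Most stood alone, since the median distance between neighbouring new peaks was 187 kb and 3769 of the 4480 had no other new peak within 10 kb. The other 711 (15.9%) fell into groups, of which 30 held 3 or more new peaks and the largest held 5. A control H3K27ac peak lay within 1 kb of 1482 new peaks (33.1%, 31.7 to 34.5%) without overlapping them, so that these flanked acetylation already called in control liver. For the remaining 2998 no control peak lay within 1 kb. Over all new peaks the median distance to a control peak was 5482 bp, and the most distant was 2572647 bp away. Of the members that only just met the rule, 94 had a control peak within 50 bp (median width 303 bp) and 133 overlapped the KO female peak by 50 bp or less (272 bp). Just outside it, 125 peaks matched in KO female liver overlapped a control peak by 50 bp or less (295 bp).

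About as many new peaks carried H3K4me1 in control liver as in KO liver. An H3K4me1 peak of at least 1 control list overlapped 3036 new peaks (67.8%, 66.4 to 69.1%), and one of at least 1 KO list overlapped 3045 (68.0%, 66.6 to 69.3%). Over all 55055 KO male peaks the shares were 66.2% and 61.5%. The control share of new peaks was thus near that of peaks at large. List by list, 59.5% of new peaks overlapped H3K4me1 in control male, 52.2% in control female, 61.9% in KO male and 47.9% in KO female liver. The lists held 68838, 54181, 67161 and 50922 autosomal H3K4me1 peaks, and the male lists, which were the longer ones, gave the higher shares. H3K4me1 was called in control and in KO liver at 2604 new peaks (58.1%) and in all 4 lists at 1396 (31.2%). No list had it at 1003 (22.4%, 21.2 to 23.6%).

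H3K4me1 was called only in KO liver at 441 new peaks (9.84%, 8.99 to 10.8%), and only in control liver at 432 (9.64%, 8.79 to 10.5%). Over all 55055 KO male peaks the first share was 6.55%. Peaks new in males only had 10.5% (9.89 to 11.1%) and 10.4% (9.83 to 11.0%), close to the shares of peaks new in both sexes. Peaks present in all 4 H3K27ac lists had 3.88% (3.63 to 4.14%) with H3K4me1 in KO liver only and 11.0% (10.6 to 11.4%) in control liver only. In both KO lists and neither control list, H3K4me1 was found at 124 new peaks (2.77%, 2.31 to 3.29%), against 117 of 22547 peaks present in all 4 lists (0.519%, 0.429 to 0.622%). Peaks new in males only were close to the new peaks, with 266 of 10751 (2.47%, 2.19 to 2.79%), and all KO male peaks had 1.30%. The reverse, H3K4me1 in both control lists and neither KO list, was found at 118 new peaks (2.63%, 2.18 to 3.15%). At peaks present in all 4 lists the share with H3K4me1 was lower in KO than in control liver in both sexes, 61.3% against 69.9% in males and 47.4% against 57.1% in females. At new peaks it was 61.9% against 59.5% in males and 47.9% against 52.2% in females. Among peaks under 500 bp, H3K4me1 in KO liver only was found at 10.0% (9.07 to 11.0%) of new peaks and 5.09% (4.49 to 5.75%) of peaks present in all 4 lists.

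**Figure D2:**
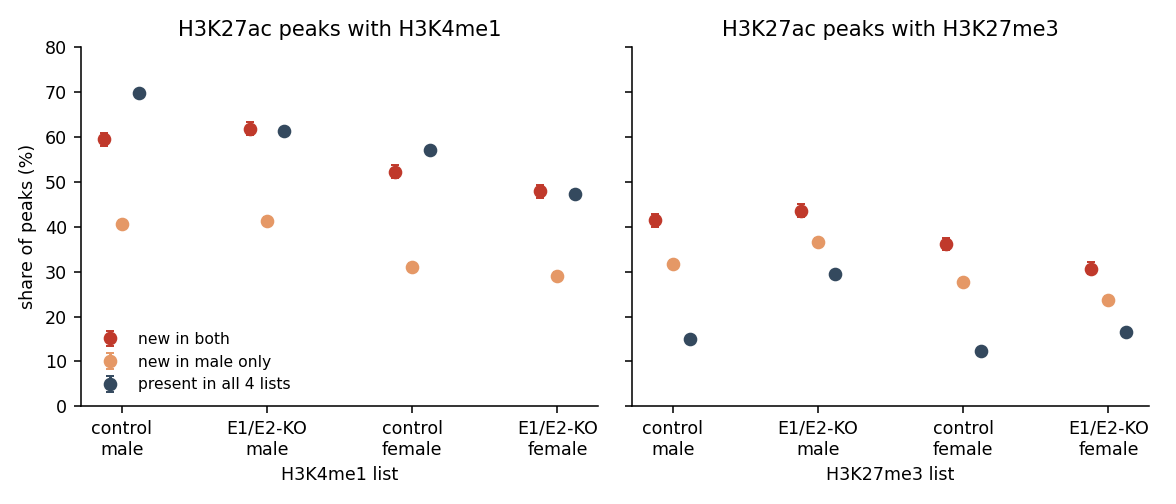
Share of H3K27ac peaks (y axis, percent) that overlap an H3K4me1 peak (left) or have their centre in an H3K27me3 region (right) in each of the 4 lists of that mark (x axis), for new peaks, peaks new in males only and peaks present in all 4 H3K27ac lists. Lines are exact 95% intervals for counting error; for H3K4me1 the new peaks go from 59.5% to 61.9% in males while peaks present in all 4 lists go from 69.9% to 61.3%.

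Each new peak was next assigned an H3K27me3 state from the position of its centre. It was in a former region when at least 1 control list and no KO list covered it, and in a remaining region when at least 1 list of each genotype did. Former regions held 473 new peaks (10.6%, 9.67 to 11.5%), against 6.23% of all KO male peaks and 4.28% (4.02 to 4.56%) of peaks present in all 4 H3K27ac lists. Former territory took 6.65% of autosomal bases. Remaining regions held 1526 new peaks (34.1%, 32.7 to 35.5%), against 19.6% of all KO male peaks and 13.1% (12.7 to 13.6%) of peaks present in all 4 lists. Remaining territory took 26.9% of the bases. A region called in KO liver only covered 516 new peaks (11.5%), and no region covered 1965 (43.9%). More than 3 times as many new peaks thus lay in regions called in both genotypes as in former regions. Livers were analysed whole, so a mark kept in every cell at a lower level and a mark kept in fewer cells, such as the non-hepatocytes with Ezh2, cannot be told apart.

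Per megabase, new peaks were as frequent in former regions (2.88) as in regions called in KO liver only (2.89), with 2.3 in remaining regions and 1.34 outside all of them. Peaks present in all 4 lists had another order, with 5.87, 22.9, 4.46 and 9.91 per Mb. Of all KO male H3K27ac peaks in former regions, 13.8% (12.7 to 15.0%) were new in both sexes, and of those in remaining regions 14.1% (13.5 to 14.8%). In KO-only regions this share was 5.98% (5.49 to 6.50%), and outside all regions 6.10% (5.84 to 6.37%). When the control regions of both sexes were merged, 3835 of them overlapped no KO region, and 184 of these (4.80%, 4.14 to 5.52%) held a new peak. Of the 13431 that did overlap one, 1376 (10.2%, 9.74 to 10.8%) held a new peak. The latter were wider, with a median of 36400 bp against 19200 bp, and new peaks per Mb were 2.39 in them against 2.58 in the lost regions.

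The H3K27me3 lists differed between the genotypes at active sites too. The share of peaks present in all 4 H3K27ac lists that lay in an H3K27me3 region was 15.0% in control male and 29.5% in KO male liver, and 12.4% in control female and 16.6% in KO female liver. For new peaks these shares were 41.5% and 43.6% in males and 36.2% and 30.7% in females. What part the calling of regions at active sites in KO liver has in the remaining state was not tested. The stricter reading, in which a region had to be in both control lists and in neither or both KO lists, left 240 new peaks (5.36%) in former and 968 (21.6%) in remaining regions, against 1.63% and 6.18% of peaks present in all 4 lists. Peaks new in males only were nearer, with 3.56% and 16.0%, and all KO male peaks had 2.72% and 10.8%.

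New promoter peaks lay mostly in remaining regions. Of the 482 new promoter peaks, 322 (66.8%, 62.4 to 71.0%) lay in remaining H3K27me3 regions, 262 of them in regions of all 4 lists, and only 31 (6.43%, 4.41 to 9.01%) in former regions. Of promoter peaks present in all 4 H3K27ac lists, 14.0% (13.4 to 14.7%) lay in remaining and 4.85% (4.45 to 5.27%) in former regions. Promoter peaks new in males only were nearer to the new peaks, with 56.6% in remaining and 5.60% in former regions, and among all peaks new in males only 27.2% and 7.73% were. Of the 3998 distal new peaks, 1204 (30.1%, 28.7 to 31.6%) were in remaining and 442 (11.1%, 10.1 to 12.1%) in former regions, against 12.3% and 3.76% of distal peaks present in all 4 lists.

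**Figure D3:**
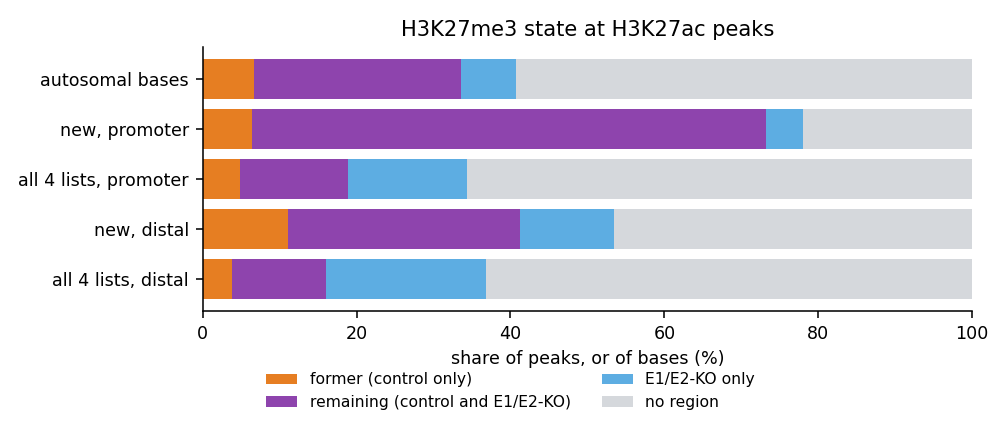
H3K27me3 state (colours) of autosomal bases, of new promoter and distal H3K27ac peaks, and of promoter and distal peaks present in all 4 H3K27ac lists, as shares in percent. Remaining regions take 66.8% of new promoter peaks against 14.0% of promoter peaks present in all 4 lists and 26.9% of the bases.

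H3K4me1 at new peaks varied with this state. In remaining regions, 65.6% of new peaks overlapped H3K4me1 in control male, 61.1% in control female, 73.1% in KO male and 56.5% in KO female liver. In former regions the shares were 66.2%, 56.7%, 70.0% and 55.2%. Outside all regions they were 54.2%, 45.1%, 52.2% and 41.4%. H3K4me1 in KO liver only was found at 10.1% of new peaks in former, 9.96% in remaining, 9.88% in KO-only regions and 9.67% outside them, so this share hardly varied with the state. H3K4me1 in control liver only was found at 7.82%, 7.08%, 10.5% and 11.9% in the same order.

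At least 1 new peak lay in or within 10 kb of 2960 of 21418 protein-coding autosomal genes (13.8%), and 1291 new peaks (28.8%) were near no such gene. At least 3 lay near 170 genes (0.794%), which together held 621 new peaks. That number of genes was 70 with peaks within 1 kb merged first, 85 with no control peak allowed within 1 kb, 10 with KO male peaks of 445 bp or more, 544 within 50 kb of the gene and 275 by the nearest start. Long genes offer more room, and the median length of the 170 genes was 212290 bp against 15535 bp for all genes. Of 909 genes of 200 kb or more, 10.0% had 3 new peaks, against 0.125% of 16795 genes under 50 kb. Counts of new peaks per gene therefore depend on length, and new peaks per 100 kb of span and flanks are given below for the genes named. H3K27me3 coverage of the gene was lower by 25 percentage points or more in KO than in control liver of both sexes at 13 of the 170 genes (7.65%, 4.13 to 12.7%) and at 2.90% of all genes.

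Named here are the 25 genes with the most new peaks once clone-based names and genes sharing most of their new peaks with another were skipped. The gene with the most new peaks, 27, was skipped under this rule, so Pde4d with 11 is not the maximum. Lengths of the 25 genes differ widely. The shorter gene was taken in a tie, so that Ppara alone stands for the 33 genes with 4 new peaks. Pde4d, a cyclic AMP phosphodiesterase (chr13:109240142-110743669, plus strand), had 11 new peaks, all intronic, at 0.722 per 100 kb. It had 12 H3K27ac peaks in all in control male, 33 in control female, 40 in KO male and 51 in KO female liver. Of its new peaks, 4 lay in former and 2 in remaining H3K27me3 regions. Prkce, protein kinase C epsilon, had 8 new peaks (1.57 per 100 kb) and 19, 49, 51 and 54 H3K27ac peaks in the same order of groups. Its span had no H3K27me3 in either control list, and 7 of its new peaks lay outside all regions. Sox5, a transcription factor of cartilage and neuronal development, had 6 in 953553 bp (0.616 per 100 kb), all 6 outside H3K27me3.

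Some genes were covered by H3K27me3 over most of their span in both genotypes. Prdm16, a zinc finger regulator of brown fat and blood stem cells (chr4:153690234-154010982, minus strand), had 3 H3K27ac peaks in either control list, against 16 in the KO male and 12 in the KO female list. All 6 of its new peaks (1.76 per 100 kb) lay in remaining regions, and 89.7%, 92.1%, 99.9% and 97.1% of its span was covered by H3K27me3 in the 4 lists. Tcfap2a, the neural crest factor AP-2 alpha (chr13:40811044-40829192, minus strand), had no H3K27ac peak in either control list and 6 in each KO list, 5 of them new by the rule, at 13.1 per 100 kb. H3K27me3 covered 100.0% of it in every list. H3K4me1 peaks within 10 kb of Tcfap2a numbered 6, 3, 4 and 2, and 3 of the 5 new peaks overlapped H3K4me1 in control liver only. Zbtb7c, a BTB zinc finger gene, had 7 new peaks (2.01 per 100 kb), 6 in remaining regions, with 4, 9, 24 and 21 H3K27ac peaks and H3K27me3 coverage of 62.4%, 74.9%, 93.5% and 54.0%.

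At other genes coverage was much lower in KO than in control liver. Igf2bp3, a fetal binding protein of Igf2 mRNA (chr6:49035220-49164953, minus strand), had 5 new peaks (3.34 per 100 kb), 3 of them at its promoter and in remaining regions. H3K27me3 coverage of its span was 68.6% in control male, 44.8% in control female, 14.9% in KO male and 9.68% in KO female liver, and its H3K27ac peaks numbered 1, 6, 12 and 13. Abcc4, an efflux transporter of the basolateral membrane, had 5 new peaks (2.05 per 100 kb), 2 in former and 3 in remaining regions, with coverage of 69.0%, 62.7%, 24.3% and 22.4%. Msi2, the RNA-binding protein Musashi 2, had 6 new peaks (1.34 per 100 kb) and coverage of 75.3%, 69.2%, 46.5% and 16.3%. All 6 overlapped H3K4me1 in control and KO liver. Sgms1, a sphingomyelin synthase, had 6 new peaks (2.09 per 100 kb), 4 in former regions, with coverage of 39.6%, 12.4%, 0% and 0% and 4, 23, 34 and 28 H3K27ac peaks.

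Ntrk2, the receptor of brain-derived neurotrophic factor (chr13:58907957-59235331, plus strand), had 7 new peaks along its span (2.02 per 100 kb), with 4, 11, 20 and 19 H3K27ac peaks in control male, control female, KO male and KO female liver. Coverage by H3K27me3 was 46.9%, 26.2%, 66.9% and 30.6%, so it was not lower in KO liver of either sex. The promoter peak and an intronic peak lay in remaining regions, 4 others in regions called only in KO male liver, and 3 of the 7 overlapped H3K4me1 in KO liver only. Ppara, the nuclear receptor that drives fatty acid oxidation in hepatocytes, had 4 new peaks at 4.55 per 100 kb. None of them overlapped H3K4me1 in any list. Ppara had no H3K27me3 in either control list, and coverage of 65.7% in KO male and 26.3% in KO female liver.

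The other genes of the 25 were Ttc7 with 6 new peaks and Mbnl2, Mob3b, Sik3, Tns1, Sntb1, Nos1ap, Vti1a, Nfib, Large, Magi1, Negr1 and Wwox with 5 each. They ranged from 0.536 per 100 kb at Wwox to 5.05 per 100 kb at Ttc7. They include the splicing factor Mbnl2, the salt-inducible kinase Sik3, the focal adhesion protein Tns1 and the transcription factor Nfib. At these 13 genes new peaks were mostly outside H3K27me3: all 5 were at Mbnl2, Mob3b, Sik3, Sntb1, Nos1ap, Nfib, Large, Magi1 and Negr1. At Sik3 and Nfib the control female list had more than the KO female list, with 36 against 34 and 33 against 26.

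**Figure D4:**
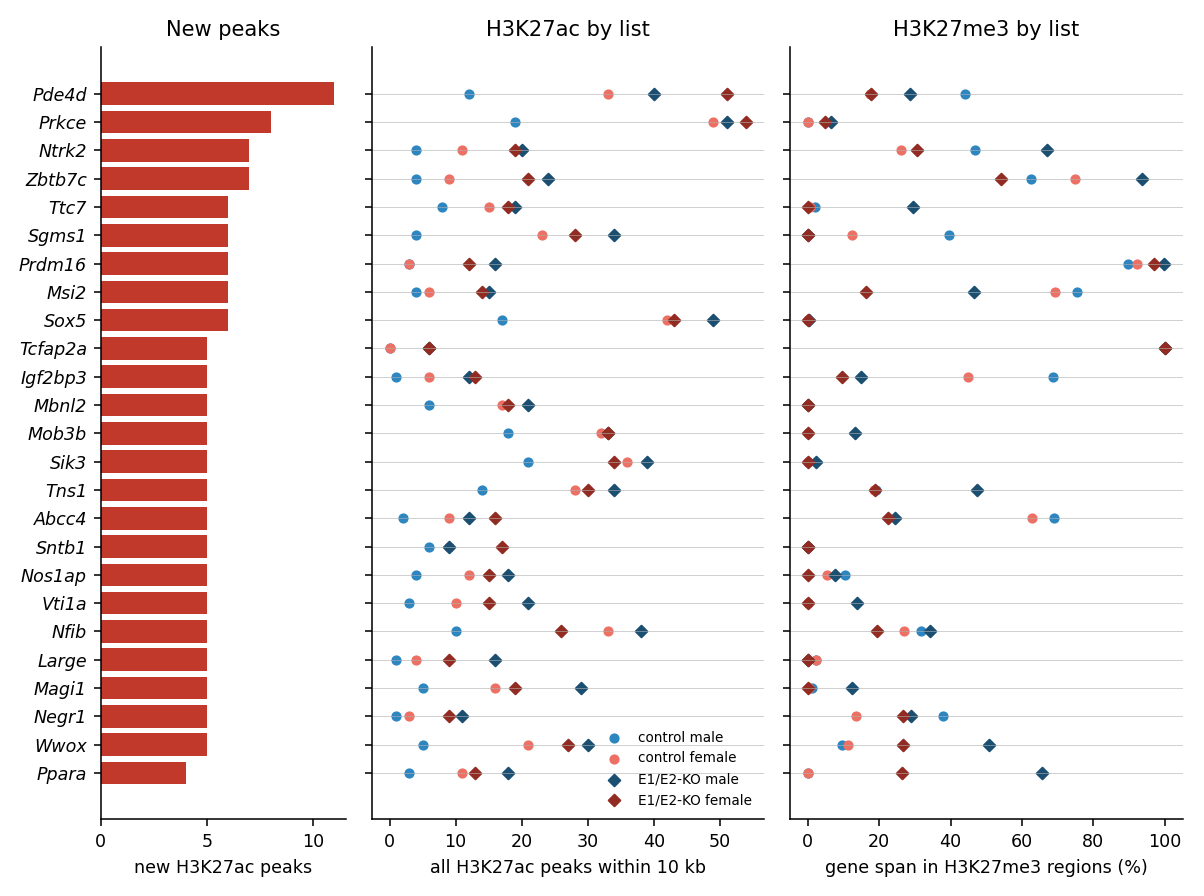
Rows are the 25 named genes with the most new peaks, and a skipped gene with 27 is not shown. Panels give the number of new H3K27ac peaks (left) and of all H3K27ac peaks within 10 kb in each of the 4 lists (middle). The right panel gives the share of the gene span in H3K27me3 regions in each list (percent). At Tcfap2a both control lists have 0 H3K27ac peaks and both KO lists 6 while H3K27me3 stays at 100.0%, whereas at Igf2bp3 coverage is 68.6% and 44.8% in control and 14.9% and 9.68% in KO liver.

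Of genes under 50 kb, 21 had 3 or more new peaks. Those with the most per 100 kb of span and flanks were Tcfap2a and, chosen after their values had been seen, Oxct2b (13.8), Cyp17a1 (11.6), Sp8 (11.4), Zic1 (10.8), Fgfr3 (8.49) and Scn4b (8.4). None of the 3 new peaks of Oxct2b lay in its own span, and the same 3 lay in introns of Bmp8b. At Cops7b, Gna13, Plekhm2, Pptc7 and Slc39a14, also under 50 kb, all 3 new peaks lay outside H3K27me3. Sp8 and Zic1 encode zinc finger factors of limb and neural development, and Scn4b a sodium channel subunit. Sp8, Zic1 and Scn4b were covered completely by H3K27me3 in all 4 lists, and their 9 new peaks all lay in remaining regions. H3K27ac peaks within 10 kb numbered 0, 0, 3 and 3 at Sp8, 0, 0, 4 and 3 at Zic1, and 0, 1, 5 and 3 at Scn4b. Cyp17a1, the steroid 17-alpha-hydroxylase (chr19:46741655-46747464), was the reverse case. It had no H3K27me3 in control liver and was covered completely in both KO lists, with 3, 8, 9 and 9 H3K27ac peaks.

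The gene groups examined were chosen with earlier results of these data known, and they are described by counts beside the 13.8% of all genes with a new peak. Genes with fewer than 3 new peaks are named in these groups as examples, picked after their values had been seen. Of 39 Hox genes, 24 (61.5%, 44.6 to 76.6%) had a new peak within 10 kb. The Hox genes lie close together, so these were 10 distinct peaks, all 10 in remaining regions and 5 at promoters. Distinct H3K27ac peaks near Hox genes numbered 4 in control male, 14 in control female, 34 in KO male and 31 in KO female liver, and median H3K27me3 coverage was 100.0% in all 4 lists. Hoxa9 had 0, 0, 4 and 2 H3K27ac peaks and Hoxd9 0, 0, 2 and 3.

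Of 137 homeobox genes outside the Hox clusters, 31 (22.6%, 15.9 to 30.6%) had a new peak, and 37 of their 44 new peaks lay in remaining regions, against 34.1% of all new peaks. As for the Hox genes, median H3K27me3 coverage of this group was 100.0% in all 4 lists. They include the eye and pancreas factor Pax6 (0, 0, 4 and 4 H3K27ac peaks in the 4 lists), Msx1 of craniofacial development (0, 0, 3 and 2) and Uncx (0, 0, 5 and 5). Pbx3 had 4 new peaks, 3 of them in former regions, with coverage of 72.2%, 40.2%, 24.2% and 29.9%. Of 36 Sox, T-box and Gata genes, 13 (36.1%, 20.8 to 53.8%) had a new peak, with 12 of 21 new peaks in remaining and none in former regions. Gata2, a factor of blood and endothelial lineages, and Sox4, a factor of progenitor cells, had new promoter peaks in remaining regions. Of 40 developmental basic helix-loop-helix factors, 6 (15.0%, 5.71 to 29.8%) had a new peak, a share near that of all genes, and all 7 of these peaks lay in remaining regions.

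The oncofetal genes examined, known from fetal liver and liver tumours, had a new peak at 6 of 17 (35.3%, 14.2 to 61.7%), with 10 of 12 new peaks in remaining regions and 6 at promoters. Beside Igf2bp3 they were Igf2bp2 with 3 new peaks, the pluripotency factor Sall4, Peg10, Igf2bp1 and Ly6d. H3K27ac peaks at Igf2bp2 numbered 0, 3, 5 and 6. Of 7 cyclin-dependent kinase inhibitors, Cdkn2a and Cdkn2b had a new peak, in both cases at a promoter inside H3K27me3 regions of all 4 lists. Cdkn2a, which encodes the senescence proteins Ink4a and Arf (chr4:88920377-88940557), had 0, 1, 1 and 1 H3K27ac peaks, the control female peak lying elsewhere than the new peak. Cdkn2b had 2, 1, 2 and 1, so its number of peaks was not higher in KO liver.

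Markers of cells other than hepatocytes bear on whole-liver lists. Of 22 endothelial markers, 13 (59.1%, 36.4 to 79.3%) had a new peak. The 18 new peaks lay in former (6), remaining (10) and no H3K27me3 regions (2), and H3K27ac peaks near the 22 genes numbered 22, 68, 84 and 78 in the 4 groups. Pecam1, the adhesion molecule CD31 (chr11:106515531-106611942, minus strand), had 3 new peaks in former regions, 4, 7, 11 and 12 H3K27ac peaks, and H3K27me3 coverage of 100.0%, 87.6%, 0% and 0%. Vwf, von Willebrand factor, had 0, 2, 4 and 3 H3K27ac peaks and 96.9%, 98.3%, 100.0% and 77.7% coverage. Cdh5 had 0, 0, 3 and 2 peaks and Kdr 0, 1, 2 and 3. Members differed, since Stab2 had 3, 12, 11 and 10 peaks, fewer in KO than in control females. Coverage of at least 50% was found at 17, 16, 12 and 10 of the 22 genes.

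For the other cell types a new peak was found near 6 of 30 stellate cell and fibroblast markers, 3 of 18 Kupffer cell and macrophage markers, 4 of 20 lymphocyte and neutrophil markers and 4 of 19 cholangiocyte and progenitor markers. Whether the number of endothelial cells differed between the livers, and what part it has in these peaks, was not tested. Of 26 hepatocyte markers, 5 (19.2%, 6.55 to 39.4%) had 1 new peak each. Those of the transcription factors Hnf4a and Foxa3 and of the enzymes Tat and Pck1 lay in H3K27me3 regions called in KO liver only, and that of the bile acid receptor Nr1h4 in none. Hnf4a had 7, 11, 13 and 9 H3K27ac peaks and 0%, 0%, 89.1% and 71.0% H3K27me3 coverage. Median coverage over the 26 hepatocyte markers was 0%, 0%, 70.0% and 0%, so the KO female value at Hnf4a was not that of the list.

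**Figure D5:**
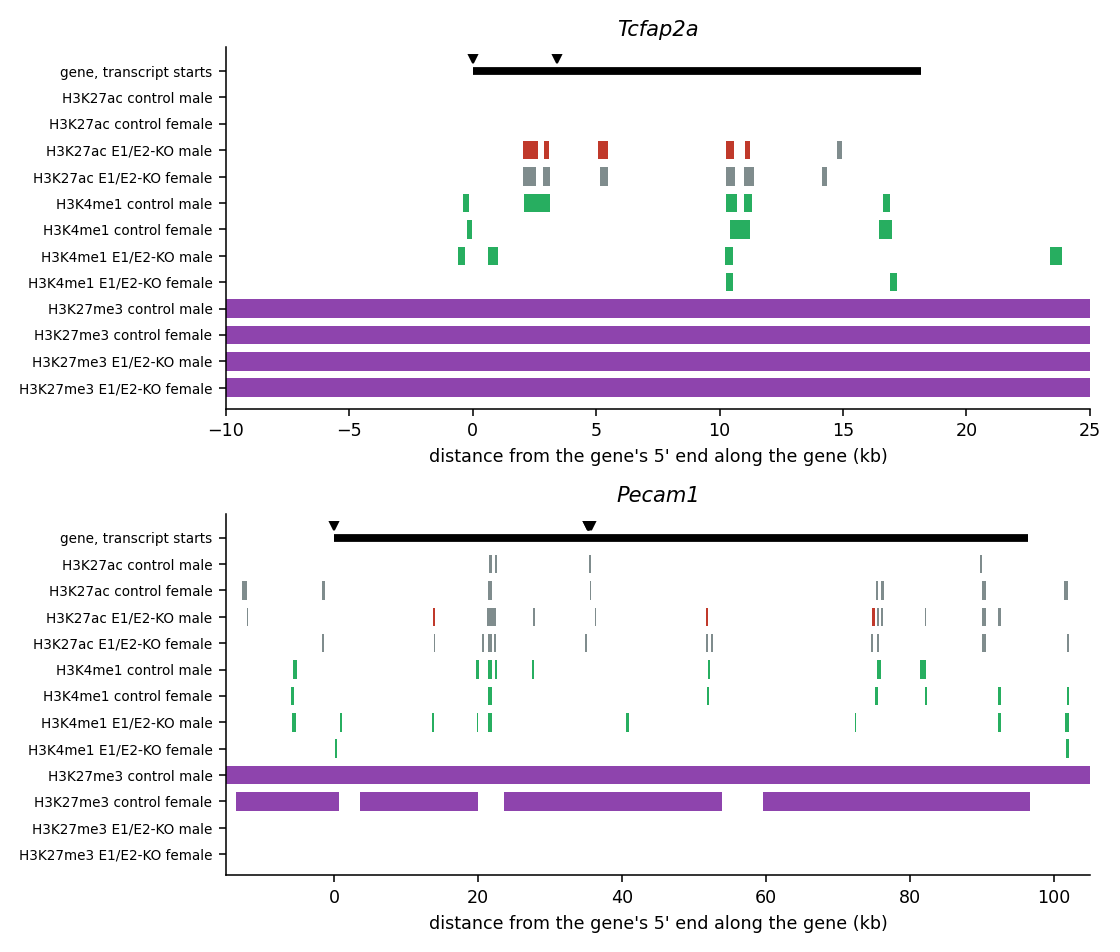
Peaks and regions of the 12 lists around Tcfap2a (top) and Pecam1 (bottom), as distance in kb from the 5' end of the gene along its strand; black bars are gene spans, triangles transcript starts, and red bars new H3K27ac peaks. At Tcfap2a the 5 new peaks lie under H3K27me3 regions of all 4 lists, and at Pecam1 the 3 new peaks lie where H3K27me3 is called in both control and in neither KO list.

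Other groups included collagen genes, of which 12 of 41 (29.3%, 16.1 to 45.5%, median length 107330 bp) had a new peak. Integrins and cadherins had 17 of 63 (27%, median length 66896 bp) and growth hormone signalling genes 6 of 16 (37.5%, 39574 bp), Tox with 4 new peaks and Cux2 with 2 among them. The median length of all genes was 15535 bp, so that the share of all genes is no like-for-like measure for these longer groups or for the endothelial markers (39476 bp). The remaining groups stand beside the 13.8% of all genes, and several were near it. A new peak was found near 8 of 63 Wnt, Fgf and Bmp ligands (12.7%) and 13 of 76 matrix proteases and Timps (17.1%). Chemokines and their receptors had one at 7 of 55 (12.7%), and potassium and calcium channels at 16 of 116 (13.8%). Cytochromes P450 had one at 12 of 94 (12.8%) and sulfotransferases at 3 of 17 (17.6%). For MHC and interferon response genes it was 14 of 80 (17.5%, with 10 distinct new peaks), and for Polycomb genes 4 of 19 (21.1%, 6.05 to 45.6%). Among the members of these groups with 3 or more new peaks were Adam12, a metalloprotease (4 new peaks), and Cacna1c, a calcium channel (3), with 2, 3, 12 and 8 and with 2, 3, 12 and 10 H3K27ac peaks in the 4 lists. All 3 new peaks of Cacna1c lay in remaining regions, and 3 of the 4 of Adam12 outside H3K27me3. Ribosomal protein genes, active in every cell, had 8 of 73 (11.0%, 4.85 to 20.5%). Over the lists other than the sex-biased ones, 57 of 70 new promoter peaks lay in remaining regions and 1 in a former region, against 322 and 31 of all 482. Many of these lists hold genes that H3K27me3 covered fully in all 4 lists, which by itself places a peak in a remaining region.

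The study's own lists of genes with sex-biased expression were examined as well. They were chosen on the study's own liver RNA data, so they are not independent evidence. Of 583 female-biased autosomal genes found, 135 (23.2%, 19.8 to 26.8%) had a new peak, and of 445 male-biased genes 103 (23.1%, 19.3 to 27.3%), against 13.8% of all genes. Their median lengths were 24125 and 26245 bp against 15535 bp, so these shares are not like for like either. Former regions held 43 of 191 new peaks near female-biased genes (22.5%, 16.8 to 29.1%) and 4 of 142 near male-biased genes (2.82%, 0.773 to 7.06%), against 10.6% of all new peaks. New peaks near female-biased genes lay in an H3K27me3 region in 41.4% of cases in control male, 27.2% in control female, 27.7% in KO male and 16.2% in KO female liver. Near male-biased genes the shares were 12.7%, 15.5%, 34.5% and 24.6%, and over all new peaks 41.5%, 36.2%, 43.6% and 30.7%. Camk1d, a female-biased gene, and Slc39a11 and Gtf2ird1, male-biased ones, had 4, 4 and 3 new peaks, all outside H3K27me3.

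For new peaks in former regions no share over all genes is given, and genes of both sex-biased lists were longer than genes at large. The counts that follow are therefore descriptions only. New peaks in former regions were found near 4 of the 445 male-biased genes. Of the 583 female-biased genes, 32 had such a peak. Beside Pecam1 they include Cyp3a16, a cytochrome P450 with 0, 0, 2 and 4 H3K27ac peaks and 64.7%, 61.1%, 0% and 0% H3K27me3 coverage, the steroid enzyme gene Hsd3b1 (0, 3, 3 and 3 peaks and 100.0%, 100.0%, 0% and 0% coverage), and Pdk4, a kinase that restrains glucose oxidation. Pdk4 was covered completely in control male liver and not at all in the other 3 groups, and had 2, 1, 3 and 3 H3K27ac peaks. The cell cycle gene Ccnd1 had 2 such peaks, with coverage of 100.0%, 56.3%, 54.1% and 42.0%. Its H3K27ac peaks numbered 3, 9, 7 and 9, so they were not more numerous in KO than in control females. Cyp3a16, Hsd3b1, Pdk4 and Ccnd1 were chosen after their values had been seen. The endothelial markers and the female-biased list share 8 genes, Pecam1 and the scavenger receptors Stab1 and Stab2 among them.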

How the data were processed

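ChIP-seq for H3K27ac, H3K4me1 and H3K27me3 was carried out by the authors on frozen livers of control and E1/E2-KO mice. Reads were mapped to mm9 with Bowtie2 (version 2.3.2), and peaks were called on reads pooled by group, with MACS2 (2.1.1, default settings) for H3K27ac and H3K4me1 and SICER (1.1) for H3K27me3. The deposited lists hold chromosome, start and end coordinates without score, p-value or read count, so depth and enrichment are unknown. Only positions were used. The members and gene lists were chosen with earlier results of these data known.

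Overlaps, distances and gene counts were computed in Python 3 with NumPy and tested on simulated lists. Peak centres were placed on GENCODE M1 (NCBIM37, the build of mm9) and all peaks fell within its chromosomes. A promoter peak lay within 1 kb of a protein-coding transcript start, and genes were extended by 10 kb. H3K4me1 overlap was 1 bp. The named genes were the 25 with the most new peaks, skipping clone-based names and, of genes that shared most of their new peaks, naming the one with more peaks or the shorter, with ties going to the shorter gene, plus genes of the lists with 3 or more. Intervals are exact binomial. The livers were replicated, but the pooled lists used here keep no value per liver, so no test was made. A gene group examined is not reported here.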

Additional observations from a re-analysis of the deposited data

Results flagged for a closer look

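Over all new peaks, the shares with either other mark differed between the genotypes in opposite directions in the sexes. The share of new peaks with H3K4me1 was 2.39 percentage points higher in KO than in control males, from 59.5% to 61.9%, and it differed by -4.29 points in females, from 52.2% to 47.9%. The share inside H3K27me3 regions was 2.12 points higher in males, from 41.5% to 43.6%, and differed by -5.45 points in females, from 36.2% to 30.7%. Each is a comparison of a single pair of pooled lists, and the difference between the sexes was not tested. Autosomal H3K4me1 peaks numbered 68838 and 67161 in control and KO males and 54181 and 50922 in females, and H3K27me3 regions covered 31.0% and 30.3% of autosomal bases in males and 25.5% and 25.6% in females. For H3K27me3 the opposite direction held in some subsets and not in others. It held at the 3998 distal new peaks, with 38.0% in control and 40.5% in KO males and 32.1% and 27.1% in females, and at new peaks under 500 bp, with 39.9% and 42.2% in males and 34.5% and 29.3% in females. In both of the following subsets the share was lower in KO liver in each sex. At the 2998 new peaks with no control H3K27ac peak within 1 kb the share was 46.7% in control and 46.4% in KO males and 41.2% and 33.5% in females, and at new promoter peaks 70.5% and 69.5% in males and 69.7% and 60.6% in females. Over all KO male H3K27ac peaks it was 23.2% and 33.5% in males and 19.6% and 20.4% in females. H3K4me1 over all these peaks was at 61.0% and 56.1% in males and 49.7% and 42.4% in females.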

How the results depend on the processing

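No paired analysis was possible because each list pools the livers of a group, and for the same reason no liver could be left out. Of 69 values recomputed under other settings, 36 stayed within the counting interval of the reported share or within 1.5 times the reported count, and 33 moved further. The 4480 new peaks were 1154 when only the wider KO male peaks (445 bp or more) could be members, and 1496 when each list was reduced to its 28862 widest peaks. With those wider peaks, H3K4me1 was at 77.9% in control, 79.2% in KO and 8.75% in KO liver only, 11.9% were in former and 39.3% in remaining regions, and 10 genes had 3 new peaks. With an overlap of 50% of the peak, promoters held 12%, and H3K4me1 was at 70.4%, 69.3% and 8.68%. With peaks within 1 kb merged first, promoters held 9.33%, H3K4me1 was at 71.5% and 73.3%, remaining regions held 37.9%, and 70 genes had 3. With no control peak within 1 kb, promoters held 9.41%, H3K4me1 was at 70.2%, 72.3% and 10.9%, remaining regions held 38.4%, and 85 genes had 3. With absence in control female liver only, H3K4me1 in control was at 69.4%. Promoters held 15.4% with a window of 2.5 kb and 13.6% with the starts of all transcripts. H3K4me1 within 1 kb was at 81.2%, 81.3% and 7.03%. With regions required in both lists of a genotype, 5.36% were in former and 21.6% in remaining regions. Genes with 3 new peaks numbered 544 within 50 kb and 275 by the nearest start. In every setting that gave both shares, that in remaining regions exceeded that in former regions. Remaining territory also took more of the autosomal bases than former territory. Per megabase, the reported new peaks were more frequent in former than in remaining regions. The constant order of the shares is therefore no measure of a preference for remaining regions. Adding the X chromosome or taking members from the female list moved none of the values recomputed beyond these bounds. The cause of these shifts was not tested, and the unknown depth limits any reading of absence.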
